A study of Rattus norvegicus with 45 samples.

Results

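The data described here are the gastrocnemius muscles of rats given a lower dose of cerivastatin, with and without treadmill running. They were chosen by their titles, as the gastrocnemius arrays at 0.1 or 0.5 mg/kg/day, and make up 15 of the 45 arrays of the series. Running and resting animals were compared with the dose as a covariate, and the comparison was repeated without 1 array that stood apart, unexercised 0.1 mg/kg/day replicate 3. The study hybridised RNA of gastrocnemius and soleus, 2 calf muscles, to Affymetrix rat expression arrays. All animals were female Sprague Dawley (SD) rats treated daily for 14 days with cerivastatin, a statin that blocks HMG-CoA reductase, or with the methylcellulose vehicle alone. Exercised animals ran 20 min/day at 20 m/min on 5 days/week. One of the stated aims was to find what exercise adds to the drug.

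The groups were exercised rats at 0.1 mg/kg/day (n = 4), exercised rats at 0.5 mg/kg/day (n = 3), unexercised rats at 0.1 mg/kg/day (n = 4) and unexercised rats at 0.5 mg/kg/day (n = 4). All 15 animals received the drug, so the comparison is of running against rest under cerivastatin. The gastrocnemius arrays of 8 vehicle rats and 7 rats at 1.0 mg/kg/day were used only to set this exercise effect beside that at other doses. Replicates are biological replicates per the series design. The labels used here give neither the hour at which muscles were taken nor the time since the last run.

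Skeletal muscle keeps its own circadian clock. The activators CLOCK and BMAL1 drive the genes of their repressors, the period proteins PER1 and PER2, the cryptochromes CRY1 and CRY2, and the nuclear receptor REV-ERBα, which Nr1d1 encodes and which holds back Bmal1. REV-ERBα is also known for promoting mitochondrial content and running capacity in mouse muscle. A bout of contraction is known to raise immediate early genes such as Fos and Egr1, the stretch-responsive gene Ankrd1, and genes that switch fuel from glucose to fat, among them Pdk4 and Angptl4.

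The promoters below belong to the clock genes described first, and were searched for some of the short motifs through which clock factors act. They come from RefSeq, build GRCr8, and run from 250 bases before to 50 bases after an annotated start. Capitals mark a motif. Nr1d1 has 2 annotated starts, at chr10:84231763-84232062 (minus strand) and chr10:84229405-84229704 (minus strand). Per1 lies at chr10:54304126-54304425 (plus strand) and Per2 at chr9:99496944-99497243 (minus strand).
Nr1d1, first window: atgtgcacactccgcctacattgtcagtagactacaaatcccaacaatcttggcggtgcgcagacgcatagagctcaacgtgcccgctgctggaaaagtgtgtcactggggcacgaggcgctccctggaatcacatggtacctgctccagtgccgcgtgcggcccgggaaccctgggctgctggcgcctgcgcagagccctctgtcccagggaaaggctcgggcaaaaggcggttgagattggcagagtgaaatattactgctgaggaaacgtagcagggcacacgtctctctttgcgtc
Nr1d1, second window: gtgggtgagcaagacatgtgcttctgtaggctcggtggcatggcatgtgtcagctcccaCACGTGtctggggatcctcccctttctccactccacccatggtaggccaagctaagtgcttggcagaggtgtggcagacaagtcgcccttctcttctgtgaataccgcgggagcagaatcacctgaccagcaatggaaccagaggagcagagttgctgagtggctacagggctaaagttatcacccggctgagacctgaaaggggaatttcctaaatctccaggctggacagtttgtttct
Per1: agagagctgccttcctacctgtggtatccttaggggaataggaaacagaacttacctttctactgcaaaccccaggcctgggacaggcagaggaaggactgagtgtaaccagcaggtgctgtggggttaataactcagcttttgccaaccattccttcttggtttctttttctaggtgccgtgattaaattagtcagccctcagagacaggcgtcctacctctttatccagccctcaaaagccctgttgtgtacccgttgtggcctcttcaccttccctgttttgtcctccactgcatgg
Per2: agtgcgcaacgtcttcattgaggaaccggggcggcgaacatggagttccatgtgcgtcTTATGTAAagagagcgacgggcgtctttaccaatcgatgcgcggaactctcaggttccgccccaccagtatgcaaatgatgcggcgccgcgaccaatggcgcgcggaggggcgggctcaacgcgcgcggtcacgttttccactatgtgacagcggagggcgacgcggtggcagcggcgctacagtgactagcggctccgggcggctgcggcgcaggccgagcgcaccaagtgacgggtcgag

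Searched on both strands were the E-box CACGTG (bound by CLOCK and BMAL1), the D-box TTATGTAA (bound by DBP and its relatives), the core AGGTCA (bound by REV-ERB and ROR receptors) and the cAMP response element TGACGTCA. The second Nr1d1 window held 1 E-box starting at position -191 relative to the start. The Per2 window held 1 D-box at position -192. The first Nr1d1 window and the Per1 window held none of the 4 motifs, which says only that these letters are not in these windows. Variants of these letters, such as E-boxes of other sequence, were not searched or marked in any window. Of 33469 promoters of the same length, 6.42% held the E-box, 0.893% the D-box, 16.2% the AGGTCA core and 1.83% the cAMP element. A promoter was found for 17 of 21 clock symbols, and E-boxes were also present in those of Ciart, Bhlhe40, Bhlhe41 and Tef.

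The arrays were of even brightness, with trimmed mean signals of 600.2 to 600.3 and median signals of 134.8 to 170.5. They were muscle by their leading genes: the fast myosin heavy chain Myh4 lay between 14.94 and 16.20 on the log2 scale in every array. One array, unexercised 0.1 mg/kg/day replicate 3, stood apart. Its median correlation with the other arrays was 0.774, against 0.920 to 0.941 for the other 14, and its actin 5' to 3' ratio was 0.116, the lowest of the 15. Summed signals of 10 Schwann cell markers were 94646 in that array, against 5480 to 10291 in exercised and 3786 to 14245 in the other unexercised arrays. For 36 macrophage markers the sums were 81422 in that array, 10867 to 34005 in exercised and 11384 to 20082 in the other unexercised arrays. For 17 adipocyte markers they were 223969, 61504 to 88046 and 62761 to 77985 in the same order. Replicate 3 was the highest array for 10 of 10 Schwann cell, 32 of 36 macrophage and 12 of 17 adipocyte markers. It was the lowest for 3 of the adipocyte markers. None of these markers was at 0 in any array. That array was the highest of the 15 for 35.7% of genes and the lowest for 26.5%. Its labels were followed. Counts, gene lists and many single genes are given with it (15 arrays) and without it (14 arrays). Lower-dose differences given without a number of arrays use all 15.

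No gene passed the test for an exercise effect at these doses. Of 21729 probe sets, 0 (0%) reached an adjusted p under 0.05 by limma with Benjamini-Hochberg adjustment, with 15 or with 14 arrays. At an unadjusted p under 0.05 there were 601 (2.77%) with 15 arrays, 230 (1.06%) higher and 371 (1.71%) lower in exercised muscle, and 1070 (4.92%) with 14 arrays. Counted once per gene, these were 270 of 11636 genes (2.32%) and 470 of 11603 (4.05%). Chance alone gives on average 1 in 20, so neither count exceeds it. The median 95% interval of a gene spanned 0.52 on either side of its log2 difference with 15 arrays and 0.42 with 14. The differences below are therefore values that did not pass: for every gene named other than Nr1d1 the adjusted p was 0.994 or above with 15 and 0.984 or above with 14 arrays. Differences and their SE are limma's. For single genes an unadjusted p is also given from a two-sided exact permutation test of the running labels within doses, over 2450 arrangements with 15 and 1225 with 14 arrays.

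The gene with the smallest p was Nr1d1. Its log2 signal was 11.61, 11.23, 11.57 and 11.70 in exercised rats at 0.1 mg/kg/day and 11.03, 11.21 and 11.44 in exercised rats at 0.5 mg/kg/day. In unexercised rats it was 10.18, 10.65, 10.65 and 10.66 at 0.1 mg/kg/day and 9.76, 10.38, 10.84 and 10.16 at 0.5 mg/kg/day. Every exercised array thus lay above every unexercised one, also when the doses were put together. Mean signals were 2717 ± 456 in exercised (SD, n = 7) and 1384 ± 322 in unexercised muscle (SD, n = 8). The log2 difference was 0.97 ± 0.15 (SE), a 1.95-fold higher level, with a 95% interval of 0.65 to 1.28 (limma, Benjamini-Hochberg adjusted p = 0.155). The exact permutation p was 0.000816, where 0.000408 is the smallest that 2450 arrangements can give. Without unexercised 0.1 mg/kg/day replicate 3 it was 0.98 ± 0.15 (adjusted p = 0.0821). Nr1d1 passed at 0.0257 when unexercised 0.5 mg/kg/day replicate 3, its highest unexercised array, was left out (difference 1.05, adjusted p), and also with array weights and with the vehicle arrays added to the fit. The last of these fits was chosen after seeing the data, and its exercise coefficient is shared by vehicle and both lower doses. Nr1d1 thus passed in 3 of 30 alternatives. In the others Nr1d1 did not pass, with an adjusted p of up to 0.781 when 1 array was left out, 0.624 without moderation and 1 when all 30 gastrocnemius arrays shared 1 fit.

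Arrays of the running and resting groups failed to overlap for 2 of 11636 genes (0.0172%), Nr1d1 and B3gntl1, which encodes a putative glycosyltransferase. B3gntl1 had log2 signals of 4.56, 5.02 and 6.28 (lowest, median, highest) in exercised and of 6.50, 6.65 and 7.39 in unexercised muscle. The difference was -1.57 ± 0.31 (exact permutation p = 0.000408). It is a dim gene, near the lower limit for testing, and was below that limit without unexercised 0.1 mg/kg/day replicate 3. With 14 arrays the groups did not overlap for 6 of 11603 genes (0.0517%). These were Nr1d1, Rtn3 (0.24) and Otud5 (0.20) on the higher side and Rdh13 (-0.64), Snapc5 (-0.84) and Rsl24d1 (-0.91) on the lower, named here after their values were seen.

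Per1, a repressor of the clock that also responds to light and glucocorticoids, had the most negative difference among the genes named. Exercised rats had log2 signals of 7.63, 5.04, 8.86 and 5.60 at 0.1 mg/kg/day and 6.52, 7.57 and 6.62 at 0.5 mg/kg/day. Unexercised rats had 8.51, 8.97, 9.87 and 8.86 at 0.1 mg/kg/day and 9.28, 9.43, 8.17 and 7.78 at 0.5 mg/kg/day. At 0.5 mg/kg/day the groups did not overlap, while at 0.1 mg/kg/day exercised replicate 3 lay within the unexercised range. The log2 difference was -2.04 ± 0.48, to 0.244 of the unexercised level, with an interval of -3.06 to -1.01 (exact permutation p = 0.00367). With 14 arrays it was -1.88 ± 0.48 (exact p = 0.0098). Per1 passed in 1 of 30 alternatives, a fit with the vehicle arrays added (-2.19, limma, adjusted p = 0.0133). That fit was chosen after seeing the data. Its exercise coefficient is shared by vehicle and both lower doses, so it does not test the lower doses alone. In the other alternatives Per1 did not pass. In raw signal, Per1 averaged 148 in exercised and 498 in unexercised muscle.

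Other core repressors showed smaller differences. Cry2, a cryptochrome, had log2 signals of 8.60, 9.07 and 9.49 (lowest, median, highest) in exercised and 8.68, 9.52 and 10.04 in unexercised muscle, a difference of -0.47 ± 0.17 (exact p = 0.0249). A second, dimmer Cry2 probe set gave 0.18 ± 0.43, so the probe sets disagreed in sign. Per2 ranged from 8.05 to 8.87 in exercised and from 8.28 to 9.36 in unexercised muscle, a difference of -0.47 ± 0.19 (exact p = 0.0306), and is named here after its values were seen. Both overlapped widely between running and rest. Dbp, an output gene of the clock that encodes a D-box binding factor, differed in the other direction. Its arrays spanned 8.76 to 9.92 with exercise and 8.45 to 9.56 without it, a difference of 0.50 ± 0.20 (exact p = 0.0302).

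Of the 17 clock genes tested, 0 passed after adjustment, 2 had a positive difference at an unadjusted p under 0.05 (Nr1d1 and Dbp) and 3 a negative one (Per1, Cry2 and Per2). Over all genes the shares were 1.01% and 1.31%. The median difference of the list was 0.03, against -0.00 over all genes, and so carried no common direction. The other 12 members lay between -0.30 (Bhlhe40, a transcriptional repressor) and 0.44 (its paralog Bhlhe41), with 7 of them positive. Nr1d2, the paralog of Nr1d1, was at 0.26 ± 0.14 and had the smallest p of these 12. The activators, named for their role, were Bmal1 at -0.15 ± 0.19 and the brightest Clock probe set at 0.03 ± 0.13. Without unexercised 0.1 mg/kg/day replicate 3 the list median was -0.14. Then 2 members were on the positive and 5 on the negative side at an unadjusted p under 0.05, of 2.17% and 1.88% of all genes. The 2 additional ones were Cry1 (-0.26) and Usp2, a deubiquitinase gene (-0.28), named after their values were seen.

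**Figure D1:**
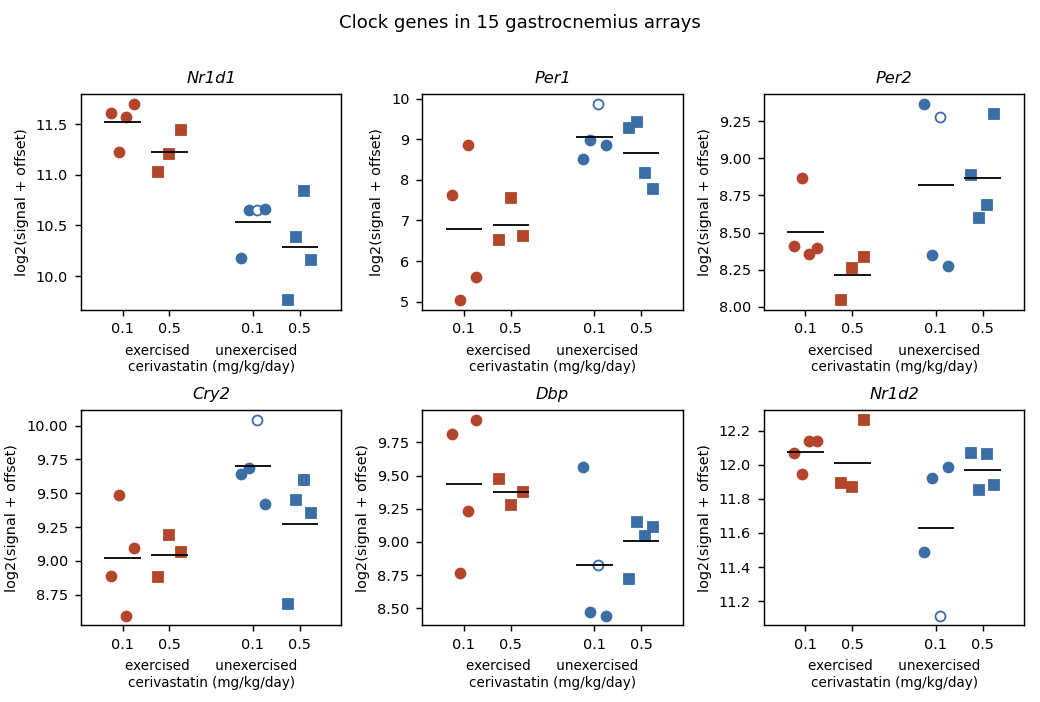
Log2 signal plus offset of clock genes in each of the 15 gastrocnemius arrays, exercised groups left of unexercised groups and 0.1 left of 0.5 mg/kg/day. Points are arrays, bars are group means, and the open symbol is unexercised 0.1 mg/kg/day replicate 3. Nr1d1 lies between 11.03 and 11.70 in all exercised arrays and between 9.76 and 10.84 in all unexercised ones, while Per1 lies mostly lower with exercise and overlaps.

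Ankrd1, which encodes a titin-binding repeat protein of the sarcomere that responds to stretch, was the second gene on the positive side by p. Its log2 signals were 11.03, 10.28, 10.44 and 10.90 in exercised rats at 0.1 mg/kg/day, against 9.49, 9.67, 9.70 and 7.96 in unexercised rats at that dose. At 0.5 mg/kg/day they were 11.88, 10.77 and 9.59 in exercised and 8.60, 8.28, 9.03 and 10.22 in unexercised rats. The groups did not overlap at the lower dose and overlapped by 1 array on each side at the higher. The difference was 1.58 ± 0.36, a 2.98-fold higher level (exact permutation p = 0.00204). A second probe set gave 1.21 ± 0.37. With 14 arrays the difference was 1.67 ± 0.36.

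Arrdc3, an alpha-arrestin that takes part in receptor trafficking, stood on the negative side. Exercised arrays had log2 signals of 11.14, 10.88, 10.78 and 10.84 at 0.1 mg/kg/day and 11.46, 11.06 and 11.06 at 0.5 mg/kg/day. Unexercised arrays had 11.73, 11.82, 12.35 and 11.59 at 0.1 mg/kg/day and 12.00, 11.31, 11.71 and 11.33 at 0.5 mg/kg/day. All 4 exercised arrays at the lower dose were below all 4 unexercised ones. The difference was -0.70 ± 0.16 (exact permutation p = 0.00245), and -0.60 ± 0.13 with 14 arrays. A second Arrdc3 probe set gave -1.05 ± 0.25.

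The other genes of smallest p on the positive side were of mixed function. Serpind1, which encodes the thrombin inhibitor heparin cofactor II, had log2 signals of 6.43, 7.54 and 7.71 (lowest, median, highest) in exercised and 5.27, 5.93 and 7.55 in unexercised muscle, a difference of 1.21 ± 0.34 (exact p = 0.00694). Mcm5, a subunit of the replicative helicase, had 7.24, 7.82 and 8.37 in exercised and 6.48, 7.26 and 7.55 in unexercised muscle, a difference of 0.72 ± 0.21 (exact p = 0.00286). Its partner Mcm3 was at -0.79 ± 0.33 (exact p = 0.0343), a difference of the other sign. Rexo4, a putative exonuclease, differed by 0.97 ± 0.27, with 1.30 at 0.1 and 0.59 at 0.5 mg/kg/day. The mitochondrial kinase-like gene Adck2 was at 0.62 ± 0.18 by its brighter and -0.18 ± 0.21 by its dimmer probe set. The remaining 6 were Kiaa1755 (0.73), the VIP receptor gene Vipr1 (0.58), the adipokine gene Azgp1 (0.55), the methyltransferase gene Eef1akmt4 (0.52), the glucose-6-phosphatase gene G6pc3 (0.45) and the RNA-binding gene Larp4b (0.35). Running and resting arrays overlapped for each of these genes.

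On the negative side, Trmu, which encodes a mitochondrial tRNA-modifying enzyme, had log2 signals of 5.54, 6.06 and 7.96 (lowest, median, highest) in exercised and 7.20, 7.82 and 8.12 in unexercised muscle. The difference was -1.22 ± 0.34 (exact p = 0.00653). Htr2c, the serotonin 2C receptor gene, had 5.49, 6.15 and 7.38 in exercised and 6.82, 7.27 and 7.76 in unexercised muscle, a difference of -0.97 ± 0.30 (exact p = 0.00939). Sinhcaf, a subunit of the Sin3 deacetylase complex, was at -1.21 ± 0.35. The exonuclease gene Exo5 stood at -1.13 ± 0.33 and the ciliary genes Cys1 and Cfap410 at -0.93 ± 0.28 and -0.78 ± 0.22. The orphan receptor gene Gpr19 was at -0.69 ± 0.21, the ribosome maturation gene Tsr2 at -0.50 ± 0.15 (0.02 ± 0.14 by a second probe set of similar brightness) and the telomere helicase gene Rtel1 at -0.46 ± 0.14. Many of these are dim: Trmu, Htr2c, Sinhcaf, Exo5 and Cfap410 all averaged between 5.84 (Exo5) and 6.55 (Cfap410) in exercised muscle, against a testing limit of 6.02 for the mean over arrays.

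Among the immediate early genes, Fos and Egr1 depended on unexercised 0.1 mg/kg/day replicate 3. Fos, a subunit of AP-1, had log2 signals of 10.01, 9.06, 8.07 and 9.87 in exercised rats at 0.1 mg/kg/day and 10.24, 9.08 and 9.01 at 0.5 mg/kg/day. In unexercised rats Fos had 8.15, 7.77, 11.43 and 7.03 at 0.1 mg/kg/day and 7.38, 8.23, 7.45 and 9.03 at 0.5 mg/kg/day. The highest Fos value of all 15 arrays was thus in an unexercised animal, replicate 3 at 0.1 mg/kg/day. The difference was 1.01 ± 0.54 (exact permutation p = 0.112) with 15 arrays and 1.51 ± 0.34 (exact p = 0.00735) with 14. A dimmer Fos probe set gave 0.80 ± 0.42.

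Egr1, an early zinc finger factor, showed the same dependence. It had 11.03, 10.33, 9.96 and 10.50 in exercised and 9.41, 9.29, 13.04 and 9.38 in unexercised rats at 0.1 mg/kg/day. At 0.5 mg/kg/day it had 10.17, 9.55 and 9.59 in exercised and 9.11, 9.45, 9.40 and 9.79 in unexercised rats. All 4 exercised arrays at 0.1 mg/kg/day were above unexercised replicates 1, 2 and 4, and below replicate 3. The difference was 0.25 ± 0.44 (exact permutation p = 0.688) with 15 arrays and 0.71 ± 0.18 (exact p = 0.00816) with 14. Dusp1, a phosphatase that ends MAP kinase signals, was at 0.35 ± 0.18 with 15 and 0.41 ± 0.17 with 14 arrays. Gadd45b, a stress sensor, was at 0.41 ± 0.21 (exact p = 0.102) with 15 and 0.42 (exact p = 0.118) with 14 arrays. The nuclear receptor gene Nr4a3 was at -0.71 ± 0.42 (exact p = 0.154) by its brightest probe set, with 15 arrays. Other Nr4a3 probe sets, of similar brightness, gave -0.12 ± 0.41 and 0.22 ± 0.35 and so disagreed in sign.

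Among 39 immediate early and exercise-responsive transcription genes, 0 passed and 0 had an unadjusted p under 0.05 with 15 arrays. Their median difference was -0.09, with 16 positive. With 14 arrays the median was 0.16 and 25 were positive, where 6141 of 11603 genes were positive over all. Then 5 were on the positive and 2 on the negative side at an unadjusted p under 0.05, beside 2.17% and 1.88% of all genes. The array set apart, unexercised 0.1 mg/kg/day replicate 3, was the highest for 22 of these 39 genes.

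**Figure D2:**
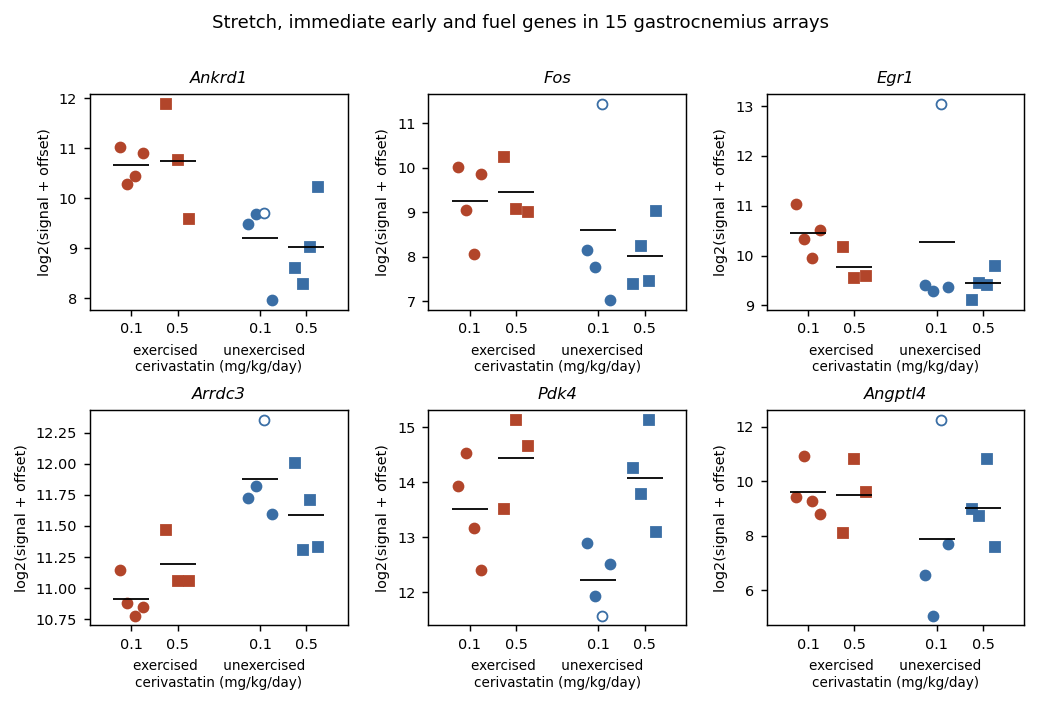
Log2 signal plus offset of stretch, immediate early and fuel genes in each of the 15 arrays, exercised left of unexercised and 0.1 left of 0.5 mg/kg/day. Points are arrays, bars are group means, and the open symbol is unexercised 0.1 mg/kg/day replicate 3. That array holds the highest Fos (11.43) and Egr1 (13.04) values, above every exercised array.

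Fuel genes varied widely between animals. Pdk4, the kinase that shuts off pyruvate dehydrogenase, had log2 signals of 13.94, 14.53, 13.16 and 12.41 in exercised and 12.90, 11.94, 11.57 and 12.51 in unexercised rats at 0.1 mg/kg/day. At 0.5 mg/kg/day Pdk4 had 13.51, 15.14 and 14.66 in exercised and 14.27, 13.79, 15.13 and 13.09 in unexercised rats. Only the lower dose set most of the exercised arrays apart, and the groups overlapped at both doses. The difference was 0.86 ± 0.37 (exact p = 0.0759), and 0.71 ± 0.36 (exact p = 0.13) with 14 arrays. Within doses it was 1.28 at 0.1 and 0.37 at 0.5 mg/kg/day.

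Angptl4, an inhibitor of lipoprotein lipase, had 9.43, 10.92, 9.27 and 8.79 in exercised and 6.55, 5.07, 12.25 and 7.71 in unexercised rats at 0.1 mg/kg/day. At 0.5 mg/kg/day it had 8.10, 10.83 and 9.60 in exercised and 8.98, 8.72, 10.81 and 7.58 in unexercised rats. The highest value was again that of unexercised 0.1 mg/kg/day replicate 3, the array with the highest adipocyte marker sum. The difference was 1.14 ± 0.84 (exact p = 0.262) with 15 arrays and 1.82 ± 0.62 (exact p = 0.0335) with 14. Ucp3, a mitochondrial uncoupling protein gene of muscle, was at 0.55 ± 0.30 with 15 and 0.33 (exact p = 0.254) with 14 arrays. Within doses, over the 15 arrays, Ucp3 was at 1.03 at 0.1 and -0.00 at 0.5 mg/kg/day. Hk2, the muscle hexokinase gene, averaged 8.61 in exercised and 8.93 in unexercised muscle, a difference of -0.26 with 15 arrays and -0.55 (exact p = 0.0139) with 14.

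The lists of energy metabolism held no gene that passed. With 15 arrays, 68 of 71 oxidative phosphorylation genes had a positive difference, with a median of 0.29, where 5757 of 11636 genes (median -0.00) were positive over all. With 14 arrays 58 were positive and the median was 0.05. The lowest of the 15 arrays was unexercised 0.1 mg/kg/day replicate 3 for 68 of these 71 genes. In the same way the median was 0.28 with 15 and 0.03 with 14 arrays for 19 TCA cycle genes. It was 0.25 and 0.01 for 30 glycolysis genes, and 0.23 and 0.11 for 37 genes of fatty acid uptake and oxidation. The number of members at an unadjusted p under 0.05 was 0 of 71 for oxidative phosphorylation with either set of arrays, beside 2.32% of all genes with 15 and 4.05% with 14 arrays. Within doses the oxidative phosphorylation median was 0.41 at 0.1 mg/kg/day, which holds that replicate 3, and 0.14 at 0.5 mg/kg/day, which does not.

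Contractile genes followed the same pattern, with slow-fibre genes as an exception. The median of 26 calcium handling genes was 0.35 with 15 and 0.04 with 14 arrays, and that of 21 stretch and Z-disc genes 0.43 and 0.10. All 21 of these were positive with 15 arrays and 14 with 14 arrays. Ky, a Z-disc gene, was at 0.87 ± 0.50 with 15 and 0.36 ± 0.25 with 14 arrays. The 19 fast-fibre genes had a median of 0.22 and 0.02. Summed fast-fibre signals were 908275 to 1125340 in exercised arrays, 863923 to 1123040 in 7 unexercised arrays and 403680 in unexercised 0.1 mg/kg/day replicate 3. In such bulk samples, fewer cells of a type and less RNA per cell cannot be told apart.

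The 18 slow-fibre genes kept a median of 0.35 with 15 and 0.34 with 14 arrays, with 17 positive in both. In vehicle rats the median exercise effect on this list was of the other sign, -1.87. At the lower doses the level of these genes turned on 2 other arrays. Myh7, the slow myosin heavy chain gene, had log2 signals of 16.02, 15.61, 10.21 and 14.07 in exercised and 16.11, 13.88, 14.55 and 4.58 in unexercised rats at 0.1 mg/kg/day. At 0.5 mg/kg/day it had 15.29, 15.74 and 16.20 in exercised and 14.45, 15.83, 16.18 and 15.71 in unexercised rats. Exercised replicate 3 and unexercised replicate 4 at the lower dose were thus low in slow-fibre RNA. The Myh7 difference was 1.01 ± 1.33 (exact p = 0.583), and -0.33 without unexercised 0.1 mg/kg/day replicate 4. In vehicle rats the Myh7 effect was -3.32 ± 1.84. Myh6, a myosin gene of the heart, was dim, with 6.64, 7.38 and 7.67 (lowest, median, highest) in exercised and 4.77, 6.40 and 7.74 in unexercised muscle. Its difference was 0.92 ± 0.35 (exact p = 0.0269). Myh4 differed by 0.23 ± 0.19 (exact p = 0.269).

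**Figure D3:**
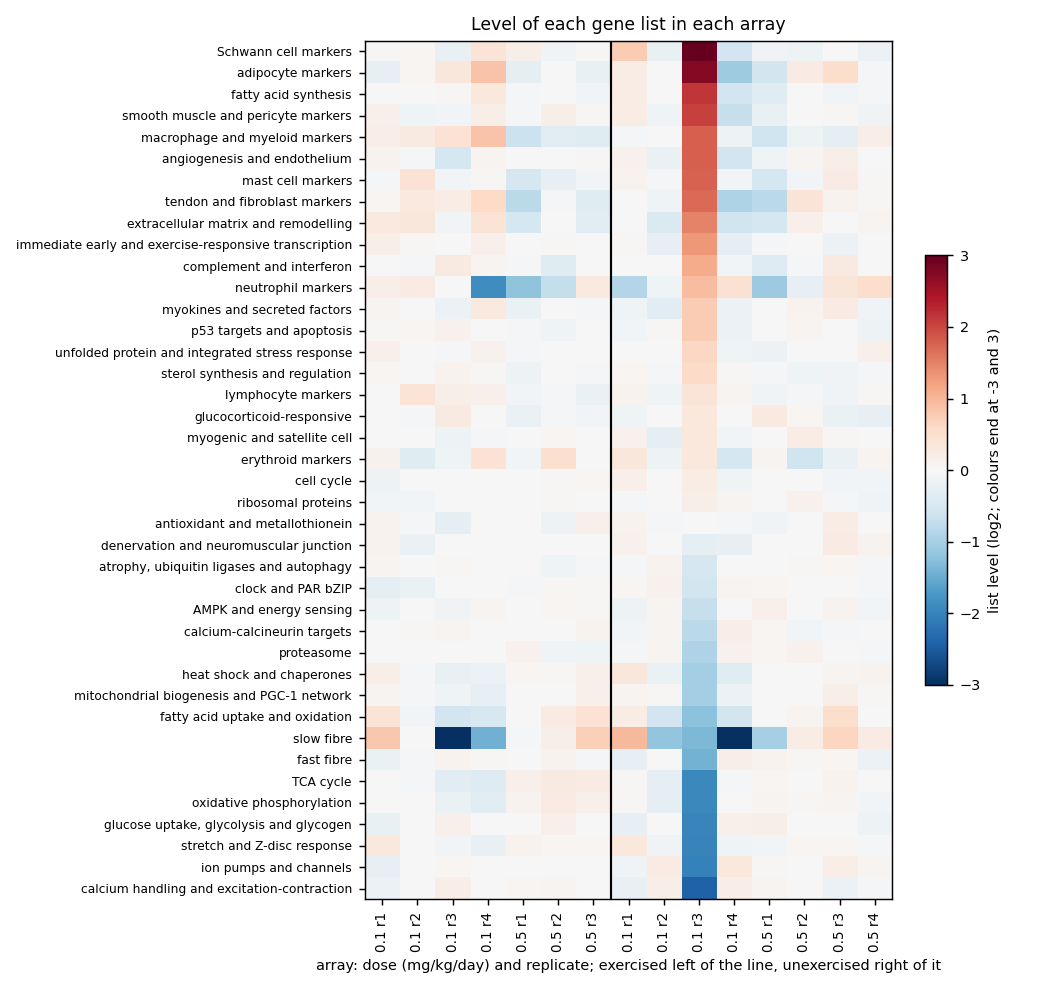
Level of each gene list in each of the 15 arrays, as the median over its members of the log2 deviation from the member's median over arrays; exercised arrays are left of the line and unexercised arrays right of it, and colours end at -3 and 3. Unexercised 0.1 mg/kg/day replicate 3 is low for calcium handling (-2.42) and oxidative phosphorylation (-1.94) and high for Schwann cell (3.15) and adipocyte (2.75) markers, and slow-fibre levels are low in exercised replicate 3 (-3.60) and unexercised replicate 4 (-4.13) at 0.1 mg/kg/day.

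Stress, inflammation and statin-related lists were also without a passing gene. Slc7a11, the cystine transporter gene, was dim, near the testing limit of 6.02. It ranged from 4.41 to 6.83 in exercised and from 5.63 to 7.28 in unexercised muscle, a difference of -0.96 ± 0.37 (exact p = 0.018). Gclm, a subunit of the enzyme that limits glutathione synthesis, was at -0.31 ± 0.11 (exact p = 0.00327), and both are known targets of NRF2. A common change of NRF2 targets was not tested. The 27 antioxidant genes, with Gclm among them, had a median of -0.03 with 12 positive. With 14 arrays it was -0.03 with 10 positive. The 31 unfolded protein and stress response genes, which include Slc7a11, had a median of -0.06 with 9 positive. With 14 arrays it was 0.03 with 20 positive. The heat shock gene Hspa1l was at -0.77 ± 0.33, the lysosomal protease gene Ctsl at -0.44 ± 0.18 and the kinase gene Sgk1 at -0.39 ± 0.17. Hspa1l differed in sign from most of its list, as 17 of 23 heat shock and chaperone genes were positive (median 0.17). With 14 arrays 14 of them were positive (median 0.04). Ccl5, a chemokine gene of lymphocytes, had 4.78, 5.28 and 7.27 (lowest, median, highest) in exercised and 5.55, 6.99 and 7.97 in unexercised muscle, a difference of -1.27 ± 0.41 (exact p = 0.0147). The leukocyte gene Cd53 was at -0.52. The median of all genes was -0.00, and those of these lists were -0.08 for 26 sterol genes, -0.06 for 36 macrophage genes, 0.00 for 54 matrix genes and -0.03 for 18 lymphocyte genes. With 14 arrays they were 0.02, 0.17, 0.22 and 0.12. Of the 26 sterol synthesis genes, which cells induce when sterols run low, 0 had an unadjusted p under 0.05 with either set of arrays, beside the same 2.32% and 4.05% of all genes.

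**Figure D4:**
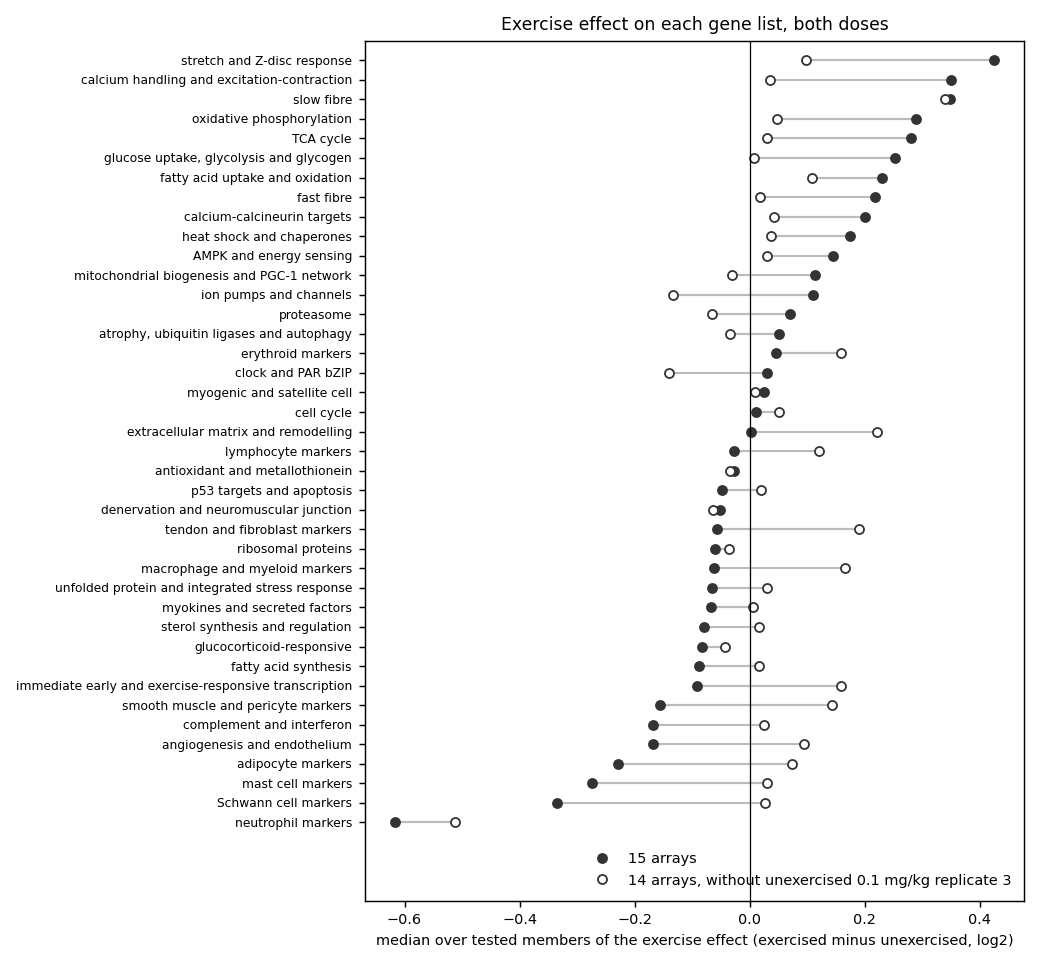
Median over the tested members of each gene list of the exercise effect (exercised minus unexercised, log2), with 15 arrays (filled) and with 14 arrays, without unexercised 0.1 mg/kg/day replicate 3 (open). The muscle lists on the right lose most of their median without that array, for example 0.29 against 0.05 for oxidative phosphorylation, while slow fibre stays at 0.35 against 0.34.

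Within single doses, 0 of 21729 probe sets passed at 0.1 mg/kg/day, and likewise 0 at 0.5 mg/kg/day, by limma with Benjamini-Hochberg adjustment, with 796 (3.66%) and 451 (2.08%) at an unadjusted p under 0.05. At 0.1 mg/kg/day there were 2152 without unexercised 0.1 mg/kg/day replicate 3, and again 0 passed. That count is above the 1 in 20 of 21729 that chance alone gives on average. The group means compared at 0.1 and at 0.5 mg/kg/day share no arrays. Both contrasts came from 1 fit with a shared spread, so the SE and p at 0.5 mg/kg/day also reflect unexercised 0.1 mg/kg/day replicate 3. Across probe sets, which are not independent replicates, the effects at 0.1 and 0.5 mg/kg/day had a Pearson correlation of 0.034, and -0.071 without unexercised 0.1 mg/kg/day replicate 3. They had the same sign for 53.3% and 46.3% of probe sets. Nr1d1 was at 0.99 ± 0.21 at 0.1 and 0.94 ± 0.23 at 0.5 mg/kg/day, a difference of -0.05 ± 0.31 between doses. Ankrd1 was at 1.46 and 1.71, and Per1 at -2.27 and -1.77. The rule that named these genes asked for 1 sign at both doses and a small p over both, so their agreement between doses is not a separate result.

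Of the differences between doses, 0 passed and 540 (2.49%) had an unadjusted p under 0.05. There were 1840 without unexercised 0.1 mg/kg/day replicate 3, also more than chance alone gives on average, and again 0 passed. Cckbr, the gastrin receptor gene, was at 1.98 ± 0.47 at 0.1 and -0.84 ± 0.50 at 0.5 mg/kg/day, a difference of -2.83 ± 0.69 between doses. Snorc, a cartilage proteoglycan gene, was at 0.05 ± 0.40 at 0.1 and -2.18 ± 0.44 at 0.5 mg/kg/day, a difference of -2.23 ± 0.60. Slc2a9, a urate transporter gene, was at -1.19 and 1.04, a difference of 2.23 ± 0.72. Immp2l, a mitochondrial peptidase gene, was at 0.97 ± 0.22 at 0.1 and -0.04 ± 0.24 at 0.5 mg/kg/day. Dusp1 was at 0.04 and 0.70. None of these passed (limma, adjusted p = 1 for each difference between doses), and an effect at 1 dose is not shown to be absent at the other.

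**Figure D5:**
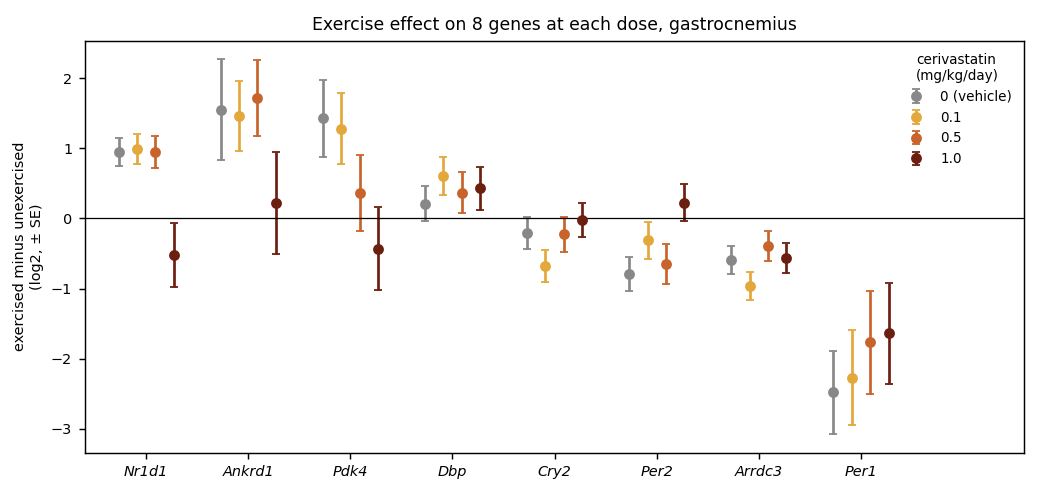
Exercise effect (exercised minus unexercised, log2, ± SE) on 8 genes in gastrocnemius at each dose of cerivastatin, from vehicle to 1.0 mg/kg/day. The Nr1d1 effect is 0.94, 0.99 and 0.94 from vehicle to 0.5 mg/kg/day. At 1.0 mg/kg/day it is -0.52, a sign that rests on the highest unexercised array. The Per1 effect is negative at every dose.

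Vehicle rats gave an exercise contrast whose group means share no arrays with those at the lower doses. Its SE and p came from a fit that also held the lower-dose arrays, with a shared spread. Nr1d1 had log2 signals of 10.98, 11.60, 11.29 and 11.32 in exercised and 10.27, 10.14, 10.30 and 10.72 in unexercised vehicle rats, again without overlap. The effect was 0.94 ± 0.20, and the lower doses minus vehicle gave 0.02 ± 0.25 (adjusted p = 1). Per1 had 6.70, 6.12, 5.82 and 5.86 in exercised and 8.14, 9.19, 8.32 and 8.77 in unexercised vehicle rats. Its effect was -2.48 and its groups did not overlap. Ankrd1 had 12.27, 8.58, 11.65 and 10.28 in exercised and 9.0, 7.64, 11.22 and 8.74 in unexercised vehicle rats, an effect of 1.55 ± 0.72 with overlap. The vehicle effect was -0.60 for Arrdc3, -0.79 for Per2, 0.21 for Dbp and -0.21 for Cry2, each with the sign seen at the lower doses. Of the 12 named genes on the positive side, 10 were positive in vehicle rats, and of the 12 on the negative side 8 were negative. With the same sign and an unadjusted p under 0.05 in vehicle rats there were 2 and 3 of these. Over all genes, 57.7% had the same sign in both and 1.5% that sign and such a p. Across probe sets, the effects at the lower doses and in vehicle rats had a Pearson correlation of 0.080, and -0.024 without unexercised 0.1 mg/kg/day replicate 3. For the vehicle contrast of that shared fit 0 probe sets passed and 681 (3.13%) had an unadjusted p under 0.05.

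The exercise effect at the lower doses differed from that in vehicle for 0 of 21729 probe sets by limma with Benjamini-Hochberg adjustment, and 529 (2.43%) had an unadjusted p under 0.05. Spry2, an inhibitor of growth factor receptor signalling, was at 0.33 at the lower doses and -0.48 in vehicle, a difference of 0.82 ± 0.22. Tnfsf9, the ligand of the T cell costimulator CD137, was at -0.48 and 1.69, a difference of -2.17 ± 0.62. Neither passed, with adjusted p = 1.

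At 1.0 mg/kg/day Nr1d1 had log2 signals of 9.94, 8.35, 9.93 and 8.54 in exercised and 8.89, 9.05 and 11.21 in unexercised rats, where groups overlapped. The effect was -0.52 ± 0.45, and the lower doses minus 1.0 mg/kg/day gave 1.49 ± 0.55 (adjusted p = 0.503). The negative sign of the Nr1d1 effect rested on the unexercised value of 11.21. The other unexercised values, 8.89 and 9.05, lay within the exercised range. Ankrd1 had 13.60, 12.39, 12.88 and 12.23 in exercised and 13.62, 13.96 and 10.08 in unexercised rats, levels mostly above those at the lower doses, with an effect of 0.22 ± 0.72. The unexercised value of 10.08 gave the Ankrd1 effect its positive sign, as the other unexercised values lay above every exercised one. Per1 was at -1.64. Between these doses 0 of 21729 effects differed after adjustment, with 2043 (9.4%) at an unadjusted p under 0.05. When 1 array was left out, that count ran from 717 to 3462, and again 0 passed. Ptbp2, a splicing regulator gene, was at 0.50 at the lower doses and -1.02 at 1.0 mg/kg/day, a difference of 1.5 ± 0.34. Mgmt, a DNA repair gene, differed by -1.24 ± 0.31 and the Wnt modulator gene Sfrp2 by -3.04 ± 0.86, with -0.64 at the lower doses and 2.36 at 1.0 mg/kg/day. All 3 had an adjusted p of 0.503.

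Array quality measures overlapped between running and rest. The actin 5' to 3' ratio, a sign of RNA integrity, was 0.347 ± 0.073 in exercised (SD, n = 7) and 0.376 ± 0.116 in unexercised arrays (SD, n = 8), a difference within doses of -0.0197 (two-sided exact permutation test over 2450 arrangements, p = 0.651). Without unexercised 0.1 mg/kg/day replicate 3 it was -0.0548 (exact permutation p = 0.0678). The Gapdh ratio averaged 0.795 in exercised and 0.784 in unexercised arrays (exact permutation p = 0.867). Whether RNA integrity takes part in the differences of Nr1d1 and Per1 was not tested.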

How the data were processed

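The deposited values are MAS5 intensities, 1 value per probe set and array, linear in scale, per the submitters' processing notes; neither the version nor the target to which MAS5 scaled them is given in the sources used here. From these intensities log2(signal + 12.4) was computed, an offset set at the 10th percentile of the deposited values, so folds of dim genes are understated. Of 31099 probe sets, 57 controls were left out and 21729 with a mean of at least 6.02 (the 30th percentile) were tested. Probe sets were named from the platform annotation, updated by gene ID (20826 with 1 symbol, 436 with several, 9780 with none), and the brightest tested one represents a gene. Exercise and dose were fitted with limma 3.58.1 (lmFit, eBayes with trend) in R 4.3.3, with Benjamini-Hochberg adjustment and a threshold of 0.05. The fits of single doses, of vehicle and 1.0 mg/kg/day and of differences used group means, with 1 spread per probe set shared by all groups of a fit. The text names the 12 genes per direction of smallest p with 1 sign at both doses, the 4 of smallest p in each of 40 gene lists, genes of a list named in every comparison (such as Egr1, Hk2, Myh4 and Myh7), and up to 6 per direction in other comparisons; exceptions are marked. The members and lists were chosen with earlier results of these data known. Alternatives were other offsets, filters, scalings and moderation, a replicate block, array weights, all gastrocnemius arrays, and leaving out each array. The exact permutation test of single genes, permuting exercise within dose, was added after seeing the data. The fit was tested on simulated data. The arrays were not treated as paired by replicate number. The number of arrays limits the precision.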

Additional observations from a re-analysis of the deposited data

Results flagged for a closer look

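In groups of 4 arrays, a highest or lowest array was marked when its gap to the next exceeded what Dixon's test allows. Of 180 groups examined 13 were marked, and chance alone marks about 1 in 20, or 9 of 180. Exercised 0.1 mg/kg/day replicate 2 had log2 signals of 8.87 for Per2 (the other 3 at 8.36 to 8.41) and 7.83 for Azgp1 (7.23 to 7.33). Exercised 0.1 mg/kg/day replicate 3 had 12.70 for Larp4b (12.25 to 12.28) and 9.45 for Gclm (9.11 to 9.15). Exercised 0.1 mg/kg/day replicate 1 had 12.98 for Mss51, a muscle gene of mitochondrial regulation (14.29 to 14.52). Unexercised 0.1 mg/kg/day replicate 1 had 10.18 for Nr1d1 (10.65 to 10.66). Unexercised 0.1 mg/kg/day replicate 4 had 7.96 for Ankrd1 (9.49 to 9.70). Unexercised 0.1 mg/kg/day replicate 3 had 13.04 for Egr1 (9.29 to 9.41). Its list level was -1.94 for oxidative phosphorylation (-0.27 to 0.04), -2.42 for calcium handling (-0.23 to 0.21) and 1.80 for macrophage markers (-0.15 to 0.00). Unexercised 0.5 mg/kg/day replicate 1 had 5.55 for Ccl5 (6.92 to 7.0). Unexercised 0.5 mg/kg/day replicate 3 had a median signal of 162.8 (150.4 to 152.5).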

How the results depend on the processing

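For the exercise effect over both doses, the alternatives were run on 15 arrays and, added after seeing the data, on 14. The count of 0 probe sets became 1 (Nr1d1, adjusted p = 0.0395) with array weights on 15 arrays. It became 2 on both sets with the vehicle arrays added, a fit chosen after seeing the data: Nr1d1 at 0.96 (adjusted p = 0.000236; 0.97 and 0.000181 on 14 arrays) and Per1 at -2.19 (adjusted p = 0.0133; -2.10 and 0.0272). Leaving out 1 array gave 0 to 1 probe sets. The 1 was Nr1d1 without unexercised 0.5 mg/kg/day replicate 3 (1.05, adjusted p = 0.0257; 1.07 and 0.00709 on 14 arrays). For the single doses and the differences between doses and from vehicle and 1.0 mg/kg/day, only left-out arrays, quantile normalization, median centring, no filter and a replicate block were run, and these gave 0. Of the alternatives' values for comparisons, 196 kept their side, 5 passed and 2 changed sign; for genes these were 3310, 7 and 28. Those that changed sign had no adjusted p under 0.05. With the vehicle arrays added, Myh7 was at -0.51 (-0.38 on 14 arrays) and Spp1 on 14 arrays at 0.16. Over left-out arrays Myh7 ran from -0.33 to 1.59 (-0.33 to 2.19 on 14), and on 14 arrays Myh4 ran from -0.0227 to 0.15 and Mss51 from -0.0449 to 0.64. The dose difference ran from -0.23 to 0.13 for Nr1d1 (0.0296 under median centring), from -0.0750 to 1.2 for Per1 and from -0.31 to 0.83 for Ankrd1. The difference from vehicle ran from -0.10 to 0.12 for Nr1d1 and from -0.66 to 0.57 for Ankrd1. The difference from 1.0 mg/kg/day kept its sign but ran from 0.74 to 1.90 for Nr1d1 and from 0.66 to 2.60 for Ankrd1. The actin ratio difference ran from -0.0548 to 0.00489 and that of Gapdh from -0.0302 to 0.0345. The cause was not tested in any of these. Counts at an unadjusted p under 0.05 were 601 with 15 arrays, 1070 without unexercised 0.1 mg/kg/day replicate 3, 1032 with array weights, 1054 with no filter, 369 above the 50th percentile and 299 with probe sets averaged by gene, where fewer features were tested. Without that replicate 3 the counts were 2152 against 796 at 0.1, 830 against 451 at 0.5 mg/kg/day, 1840 against 540 for the dose difference and 995 against 529 for the difference from vehicle. Deviations of equally numbered arrays correlated by -0.10 to 0.25, which with so few arrays cannot show whether the numbers pair them. A replicate block gave 0 probe sets, with 593 unadjusted and a lowest adjusted p of 0.789 (1202 and 0.181 on 14 arrays).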
